A study of Mus musculus with 6 samples.

Results

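Transcripts of 9 Mas-related G protein-coupled receptors were measured in mouse dorsal root ganglia, which house the sensory neurons of the body wall and limbs. The 9 genes, Mrgprd, Mrgpra3, Mrgprx1, Mrgprb4, Mrgprb5, Mrgpra2a, Mrgpra2b, Mrgpre and Mrgprf, were taken by symbol out of 54532 genes in the deposited count table, as receptors of non-peptidergic and itch neurons, and all 9 were found. The study holds 6 bulk RNA-seq libraries of whole ganglia. There were 3 from Ash1l+/- mice, heterozygous for Ash1l, a gene for a histone methyltransferase, and 3 from wild-type (WT) littermates. The sources used here do not give the Ash1l allele, strain, age or sex. They also do not state whether the libraries are different mice, and p-values therefore cover the spread among these libraries, which may be technical.

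Mas-related receptors sit on small-diameter sensory neurons that end in the skin, and each subset of these neurons carries its own combination of them. Most are coupled through G proteins to phospholipase C and calcium release, and their activation by peptides or small molecules is known for itch and for skin-evoked pain. The transcription factor Runx1 is known to govern the expression of several of them during the development of these neurons.

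All 9 genes lie on mouse chromosome 7 (GRCm38). Of these, 6 lie within a 1500 kb cluster of tandem copies at chr7:47185707-48685614, which the annotation fills with 50 genes and pseudogenes. Mrgpre lies at chr7:143778363-143784500, and Mrgprf and Mrgprd are neighbours at chr7:145300828-145309557 and chr7:145314835-145324086. Because cluster genes arose by duplication, their sequences set how well their reads can be told apart. Mrgpra2a and Mrgpra2b are the closest pair, identical at 1233 of 1236 aligned transcript bases. Counted from 1 at the 5′ end of the Mrgpra2a transcript, and written as the Mrgpra2a base, the position and the Mrgpra2b base, the differences are A410G, G949A and T1075C. The windows around the 2 that lie in coding sequence are shown because these single bases, in capitals, are what separates the reads of the pair there (minus strand, GENCODE transcripts on GRCm38, chr7:47427133-47427183 and chr7:47426594-47426644 for Mrgpra2a, chr7:47464607-47464657 and chr7:47464068-47464118 for Mrgpra2b).
Mrgpra2a at 410: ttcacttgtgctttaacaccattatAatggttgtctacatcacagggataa
Mrgpra2b at 410: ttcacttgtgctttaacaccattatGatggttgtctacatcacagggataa
Mrgpra2a at 949: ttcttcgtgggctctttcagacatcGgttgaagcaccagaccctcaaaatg
Mrgpra2b at 949: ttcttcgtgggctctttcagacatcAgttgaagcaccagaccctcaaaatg
Of all 100-base stretches of the annotated exons, 73.4% of those of Mrgpra2a and 68.2% of those of Mrgpra2b also occur in another gene, each time its partner. The values of these 2 genes are therefore uncertain individually and are also given summed. No 100-base stretch of the 7 other receptors is shared with another annotated gene.

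Mrgprb4 and Mrgprb5 are the next pair of interest, since they are neighbours whose transcripts are 84.9% identical and whose counts parted in 1 library, as described below. Their DNA before the transcription start is also alike. The stretches below end upstream of both the RefSeq and the GENCODE start of each gene (RefSeq, GRCm38.p6, minus strand, chr7:48199289-48199428 and chr7:48169096-48169235), and capitals mark bases that differ or face a gap, with 113 of 143 aligned columns identical.
Mrgprb4 upstream: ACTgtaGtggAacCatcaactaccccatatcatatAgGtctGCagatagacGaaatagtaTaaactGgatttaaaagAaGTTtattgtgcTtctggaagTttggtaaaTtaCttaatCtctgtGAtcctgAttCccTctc
Mrgprb5 upstream: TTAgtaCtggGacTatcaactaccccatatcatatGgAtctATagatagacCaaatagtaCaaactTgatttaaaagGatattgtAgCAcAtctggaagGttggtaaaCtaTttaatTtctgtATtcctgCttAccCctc
RefSeq promoter windows, from 250 bases before to 50 after the start, matched 7 of the 9 receptors, all but Mrgpra3 and Mrgprf. The letters TGTGGT, the core that Runx factors are known to bind, were searched on both strands. They occurred in 0 of these 7 windows and in 16.8% of the 32851 windows of the table, which says only that these letters are not in these stretches.

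Total counts ran from 17209294 to 20545722 per library. WT replicate 2 stood apart: its TMM factor, which scales a library for its make-up, was 0.759 against 1.05 to 1.07 in the others, and 85.2% of the 16032 genes tested had it outside the range of the other 5 libraries. Receptor results are given with and without it, and lists of other genes mainly without it, with the values over 6 libraries where they differ in direction. Ash1l itself was at 60.8, 30.9 and 54.3 TMM-scaled CPM (library-size-scaled read counts) in WT replicates 1, 2 and 3 and at 66.4, 66.4 and 68.8 in the Ash1l+/- replicates. Every library labelled Ash1l+/- was thus above every WT library, not below as loss of a gene copy would give if it lowered the transcript. The log2 fold change was 0.46 in 6 libraries, 0.22 in 5 and -0.04 in 5 with GC and length trends removed, and passed in none (edgeR adjusted p = 0.396, 0.0593 and 0.810). The transcript therefore lends the genotype labels no check, and groups are called by their labels. Pan-neuronal markers were detected in every library, with none of the 12 at 0, and their summed level was 11475 to 11920 CPM in 5 libraries and 25417 in WT replicate 2, of which Uchl1 made up 14207. The NEBNext Ultra kit leaves strand unmarked, so a transcript that overlaps a receptor on either strand cannot be told apart from it. Among the 9, that touches Mrgpre, in which 66 of 3761 exonic bases lie under the gene Gm22064.

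Mrgprd was the most abundant of the receptors in all 6 libraries. It encodes the receptor for beta-alanine and marks the large class of non-peptidergic nociceptors of the skin. It stood at 135, 149 and 129 CPM in WT replicates 1, 2 and 3 and at 146, 154 and 159 CPM in Ash1l+/- replicates 1, 2 and 3. The groups overlapped only through WT replicate 2, which lay above Ash1l+/- replicate 1. Across all 6 libraries the means were 138 ± 10.2 and 153 ± 6.24 CPM (SD, n = 3 each), and the log2 fold change of 0.15 (SE 0.14) did not pass the test (edgeR adjusted p = 0.529). With WT replicate 2 left out, the log2 fold change was 0.21 (SE 0.07), a level 1.16-fold higher in Ash1l+/-, and it passed narrowly (edgeR adjusted p = 0.0485). It passed more clearly once each library's trends with GC content and gene length had been removed as well (0.28, SE 0.06, edgeR adjusted p = 0.0122). The call in the 5 libraries was lost when they were scaled to the Mrgprd-class marker list (0.18, edgeR adjusted p = 0.283), when library totals were used in place of TMM factors, and when any of WT replicate 1, WT replicate 3, Ash1l+/- replicate 2 or Ash1l+/- replicate 3 was left out in addition. On the scale of pan-neuronal markers, the value over 6 libraries was -0.05. In bulk tissue, a larger share of Mrgprd neurons and more Mrgprd RNA per neuron cannot be told apart.

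**Figure D1:**
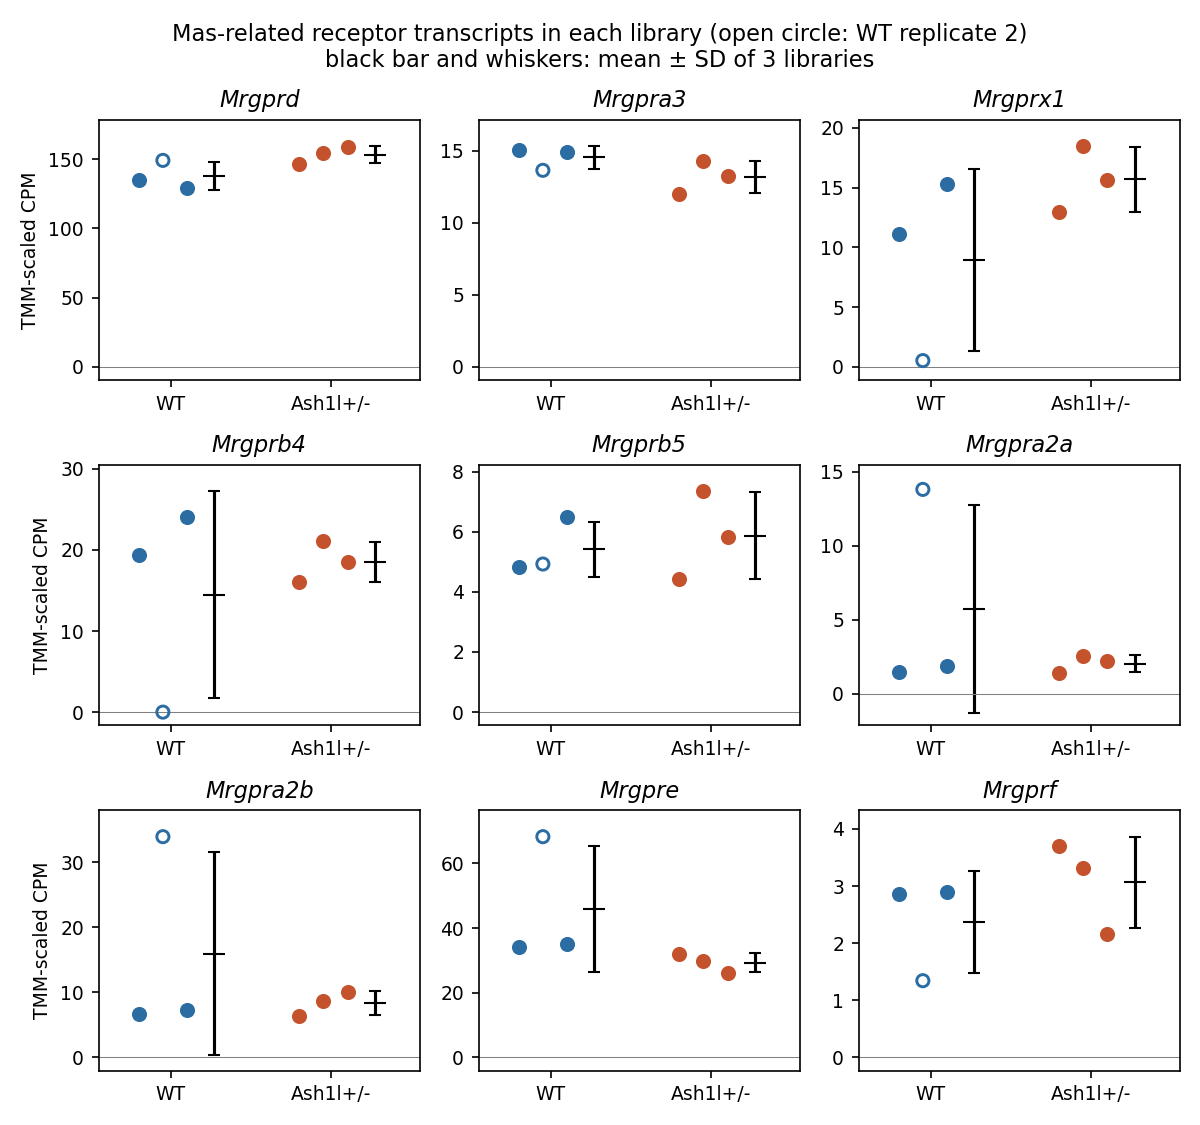
TMM-scaled CPM of each receptor in the 3 WT (blue) and 3 Ash1l+/- (red) libraries, with an open circle for WT replicate 2 and the mean ± SD of each group in black; each panel has its own linear axis. WT replicate 2 is at 0 for Mrgprb4 and at 0.522 CPM for Mrgprx1, and is the highest library for Mrgpra2a, Mrgpra2b and Mrgpre, while Mrgprd, Mrgpra3 and Mrgprb5 place it among the others.

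Mrgpra3 and Mrgprx1 are receptors of the itch-selective neurons. Mrgpra3 (chr7:47588950-47601372) is the mouse receptor for chloroquine. It was at 15.1, 13.7 and 14.9 CPM in WT and at 12, 14.3 and 13.2 CPM in Ash1l+/-, a range of low spread in which WT replicate 2 lay among the Ash1l+/- libraries. The log2 fold change was -0.14 (SE 0.16) in 6 libraries and -0.19 (SE 0.13) without WT replicate 2, and passed in neither (edgeR adjusted p = 0.60 and 0.325). In the 5 libraries the 3 Ash1l+/- values were all below the remaining WT values, as for 25.3% of all genes tested.

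Mrgprx1 (chr7:48020971-48027597) responds to a peptide cut from proenkephalin, and its transcript is known from the same itch neurons as Mrgpra3. It had 225, 7 and 295 counts in WT and 284, 345 and 281 in Ash1l+/-, which is 11.1, 0.522 and 15.3 CPM against 13, 18.5 and 15.6 CPM. Besides WT replicate 2, the libraries overlapped. In 6 libraries its log2 fold change of 0.80 (SE 0.92) did not pass (edgeR adjusted p = 0.609), nor did the 0.25 (SE 0.16) found without WT replicate 2 (edgeR adjusted p = 0.278). The ratio of Mrgprx1 to Mrgpra3 counts was 0.735 and 1.02 in WT replicates 1 and 3, 1.08, 1.29 and 1.18 in Ash1l+/-, and 0.0383 in WT replicate 2.

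Mrgprb4 (chr7:48198070-48199288) marks C-fibre neurons that respond to stroking of hairy skin. Its counts were 392, 0 and 465 in WT and 351, 393 and 333 in Ash1l+/-, or 19.3, 0 and 24.1 CPM against 16.0, 21.1 and 18.5 CPM. No read was assigned to it in WT replicate 2, where 3 counts, taken as the floor, would be 0.224 CPM, and the other libraries overlapped. The direction of the genotype difference turned with that library: the log2 fold change was 0.35 (SE 1.26) in 6 libraries and -0.23 (SE 0.13) in 5 (edgeR adjusted p = 0.867 and 0.230). With the GC and length trends of the 5 libraries removed it was -0.37 (SE 0.11) and passed (edgeR adjusted p = 0.0459).

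Mrgprb5 (chr7:48167983-48169019) is the close relative next to Mrgprb4 whose upstream stretch is printed above. It was at 4.83, 4.92 and 6.47 CPM in WT and at 4.43, 7.34 and 5.84 CPM in Ash1l+/-, with full overlap of the groups and WT replicate 2 in their midst. Its log2 fold change was 0.12 (SE 0.26) in 6 libraries and 0.05 (SE 0.21) in 5 (edgeR adjusted p = 0.792 and 0.894). Mrgprb4 had 4 and 3.72 times the counts of Mrgprb5 in WT replicates 1 and 3 and 3.62, 2.87 and 3.17 times in Ash1l+/-. The 3 Ash1l+/- ratios were thus below these WT ratios and above the 0 of WT replicate 2, so that over 6 libraries the groups overlapped. These ratios were not tested, and in the 5 libraries 49.2% of all genes did not overlap by CPM.

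Mrgpra2a (chr7:47426328-47452139) and Mrgpra2b (chr7:47463806-47528862) are the near-identical pair. Mrgpra2a was at 1.43, 13.8 and 1.86 CPM in WT and 1.37, 2.52 and 2.17 CPM in Ash1l+/-. Mrgpra2b was at 6.61, 33.9 and 7.25 CPM in WT and 6.40, 8.68 and 10 CPM in Ash1l+/-. For both, WT replicate 2 was far above the 5 other libraries, which overlapped between genotypes. Their log2 fold changes were -1.48 (SE 0.92) and -0.92 (SE 0.68) in 6 libraries and 0.29 (SE 0.33) and 0.27 (SE 0.18) without WT replicate 2. None of the 4 passed (edgeR adjusted p = 0.409, 0.456, 0.589 and 0.331). Summed into 1 gene, the pair had 163, 640 and 176 counts in WT and 170, 209 and 219 in Ash1l+/-, with a log2 fold change of -1.06 in 6 libraries and 0.27 in 5 (edgeR adjusted p = 0.435 and 0.298). The counts of Mrgpra2b were 3.45 to 4.67 times those of Mrgpra2a in 5 libraries and 2.46 times in WT replicate 2.

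Mrgpre and Mrgprf are orphan receptors outside the cluster. Mrgpre was at 34.1, 68.3 and 35.1 CPM in WT and at 32.0, 29.9 and 26.2 CPM in Ash1l+/-, so every Ash1l+/- library was below every WT library. It was the only receptor of the 9 whose groups did not overlap in 6 libraries, and among all genes tested 38.5% did not overlap (19.2% lower in Ash1l+/-). The exact two-sided permutation test gave p = 0.1, the smallest that 3 against 3 libraries can give. The log2 fold change was -0.64 (SE 0.31) in 6 libraries and -0.23 (SE 0.10) in 5, and passed in neither (edgeR adjusted p = 0.385 and 0.119). It was -0.05 (SE 0.09, edgeR adjusted p = 0.805) once GC and length trends of the 5 libraries were removed.

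Mrgprf, which is also known from smooth muscle, was at 2.86, 1.34 and 2.90 CPM in WT and 3.70, 3.32 and 2.17 CPM in Ash1l+/-. WT replicate 2 was the lowest library, and the others overlapped. The log2 fold change was 0.36 (SE 0.39) in 6 libraries and 0.10 (SE 0.26) in 5 (edgeR adjusted p = 0.585 and 0.823). The 10 mural and smooth muscle markers, none of them at 0, summed to 266, 151 and 295 CPM in WT and 293, 347 and 335 CPM in Ash1l+/-. Of these sums, Rgs5 alone made up 174, 49.2 and 215 CPM in WT and 211, 261 and 256 CPM in Ash1l+/-. The sum was thus lowest in WT replicate 2 through Rgs5, and the remaining markers together were not lowest there. Their part in the Mrgprf values was not tested.

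Over the 9 receptors, 0 were called at an adjusted p under 0.05 in 6 libraries, where edgeR called 0.0% of 16032 genes. None of the 9 had an unadjusted p under 0.05, against 1702 genes or 10.6% of those tested, and DESeq2 and limma-voom called none of the 9 either, with 35 genes (0.218%) and 0 genes called in all. Voom with library quality weights, which nearly discounted WT replicate 2, called Mrgprd alone among the 9, against 26.1% of genes. In the 5 libraries edgeR called 1 of the 9, Mrgprd, against 19.8% of 16395 genes tested (9.39% higher and 10.4% lower in Ash1l+/-), and DESeq2 called the same receptor, against 17.9%. After removal of GC and length trends edgeR called 2 of the 9, Mrgprd higher and Mrgprb4 lower, against 7.04% of genes (2.63% higher and 4.41% lower). The groups of 5 libraries did not overlap for 3 of the 9, Mrgprd higher and Mrgpra3 and Mrgpre lower, against 49.2% of genes (23.9% higher and 25.3% lower). Of the log2 fold changes in these 5 libraries, 6 were above 0 and 3 below, the largest in size was 0.29, their median was 0.10 beside 0.00184 over all genes tested, and with trends removed Mrgprb5 moved to the other side (-0.06).

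**Figure D2:**
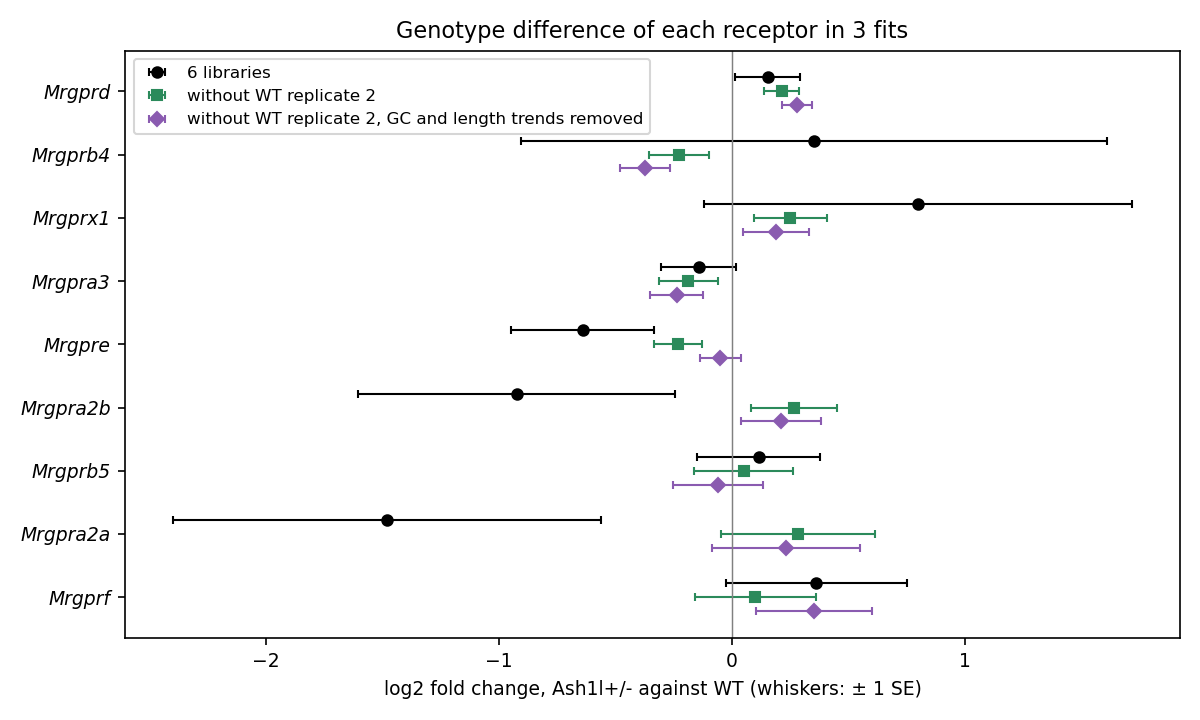
Log2 fold change of each receptor, Ash1l+/- against WT, with whiskers of 1 SE, from 6 libraries (black circles), without WT replicate 2 (green squares), and without it after removal of GC and length trends (violet diamonds). The values of Mrgprb4, Mrgpra2a and Mrgpra2b lie on opposite sides of 0 with and without WT replicate 2, and in the 5 libraries no receptor lies beyond 0.29 from 0 in the fit without trend removal.

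Levels were compared between receptors as CPM per kilobase of gene length. Over the 5 libraries without WT replicate 2 the order was Mrgprd at 46.0 ± 3.97, Mrgprb4 at 16.2 ± 2.45, Mrgprx1 at 12.5 ± 2.37, Mrgpra3 at 10.7 ± 0.991, Mrgpre at 8.36 ± 0.946, Mrgpra2b at 5.84 ± 1.14, Mrgprb5 at 5.58 ± 1.14, Mrgpra2a at 1.51 ± 0.393 and Mrgprf at 1.35 ± 0.259 CPM per kilobase (SD, n = 5). Only 2 neighbouring steps in this order separated without overlap of their ranges, Mrgprd above Mrgprb4 and Mrgprb5 above Mrgpra2a. The second step is uncertain, because reads of Mrgpra2a and Mrgpra2b are hard to tell apart. For the same reason the individual levels and places of these 2 genes are uncertain. The remaining neighbours did not differ beyond their spread, although Mrgprb4 was above Mrgprx1 within each of the 5 libraries and Mrgpra3 was above Mrgpre in each. In WT replicate 2 the order was different, with Mrgpra2b next after Mrgprd at 25.4, then Mrgpre at 18.2, and with Mrgprx1 at 0.443 and Mrgprb4 at 0 CPM per kilobase in the last places.

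**Figure D3:**
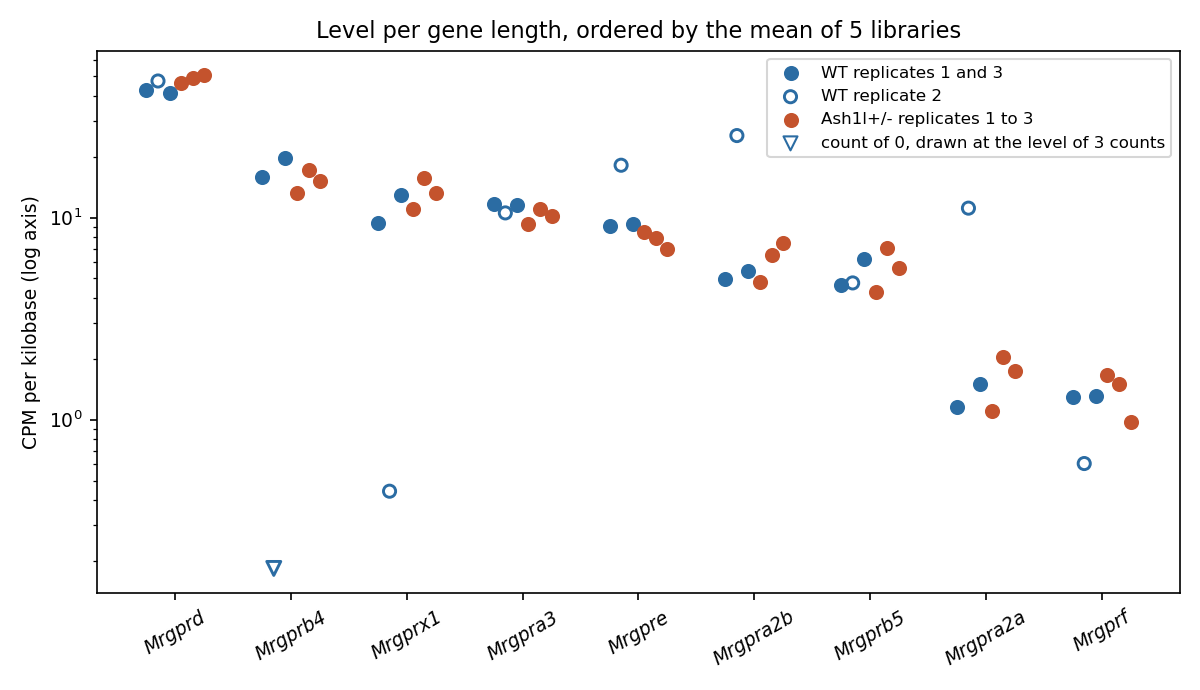
CPM per kilobase of gene length on a log axis, with the receptors ordered by their mean over 5 libraries; filled circles are WT replicates 1 and 3 (blue) and the Ash1l+/- replicates (red), and WT replicate 2 is open, with a triangle at the level of 3 counts where its count was 0. Mrgprd lies above every other receptor in each library, while neighbours from Mrgprb4 to Mrgprb5 overlap.

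The summed level of the 9 receptors was 101, 118 and 109 CPM per kilobase in WT and 100, 118 and 112 in Ash1l+/-, so that even WT replicate 2 lay close to the rest in the sum. Its make-up differed. Mrgprd made up 40.0% of the sum in WT replicate 2, within the 37.7% to 46.4% of the 5 other libraries. Mrgprb4 and Mrgprx1 made up 0% and 0.374% there against 13.1% to 18.1% and 9.32% to 13.3% elsewhere. In their place Mrgpra2a and Mrgpra2b took 9.40% and 21.5%, against 1.10% to 1.72% and 4.78% to 6.70%, and Mrgpre took 15.3% against 6.22% to 8.99%. The individual shares of Mrgpra2a and Mrgpra2b are uncertain, as their levels are. Between genotypes in the 5 libraries, Mrgprb4 made up 15.7% and 18.1% of the sum in WT and 13.1%, 14.6% and 13.6% in Ash1l+/-, Mrgpra3 made up 11.5% and 10.6% against 9.25%, 9.36% and 9.12%, and Mrgpre made up 8.99% and 8.54% against 8.46%, 6.73% and 6.22%. Between genotypes, the groups of none of these 3 overlapped in the 5 libraries, in which 49.2% of all genes did not overlap by CPM. With WT replicate 2, where Mrgprb4 made up 0% and Mrgpra3 8.90%, the groups of these 2 overlapped. The shares, which do not depend on the scaling between libraries, were not tested.

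**Figure D4:**
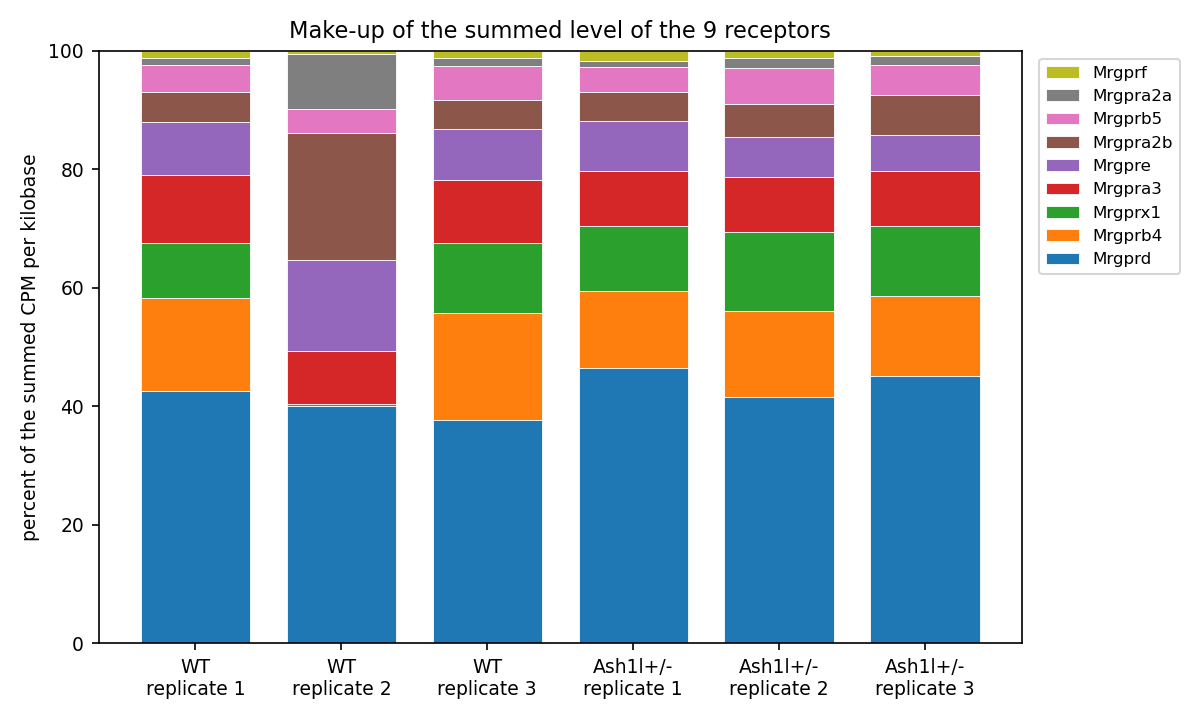
Stacked bars give the percent of the summed CPM per kilobase of the 9 receptors that each contributes, 1 bar a library. Mrgprd makes up 37.7% to 46.4% of every bar, and in WT replicate 2 the blocks of Mrgprb4 and Mrgprx1 are missing or a thin line, while those of Mrgpra2b, Mrgpre and Mrgpra2a are wider than in the 5 other bars.

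The departure of WT replicate 2 differed from receptor to receptor and was set against the departure of other genes. Set against the 5 other libraries pooled, Mrgprb4 was at least 71.5-fold lower (95% counting interval, from its 0 counts). Placed at the floor of 3 counts, it was 88.5-fold below their mean. Mrgprx1, set against the 5 pooled, was 27.9-fold lower (95% counting interval 13.5 to 69.5, from its 7 counts). Against the mean of the 5, Mrgpra2a was 7.38-fold, Mrgpra2b 4.36-fold and Mrgpre 2.17-fold higher. Mrgprd was at 1.03, Mrgpra3 at 0.981 and Mrgprb5 at 0.851 times that mean. In all, 6 of the 9 lay outside the range of the 5 other libraries, beside the 85.2% of all genes given above. A count of 0 was rarer. Of 7663 genes whose lowest count in the 5 libraries was at least that of Mrgprb4, 4 genes including Mrgprb4, or 0.0522%, were at 0 in WT replicate 2. Of 8860 genes with counts as high as those of Mrgprx1, 0.643% were as far down, and shares of 1.47%, 5.25% and 16.3% were as far up as Mrgpra2a, Mrgpra2b and Mrgpre among genes with counts at least as high. At a lowest count of at least 100 in the other 5 libraries, 23 of 10941 genes were at 0 in WT replicate 2, and 0 genes were at 0 in any of the 5 other libraries when each was set against its own 5.

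Along the cluster, genes at 0 in WT replicate 2 alternated with genes that kept their reads. Of its 50 annotated genes, 11 had a mean count of at least 20 in the 5 libraries. In WT replicate 2, 5 of these were below the range of the others, 3 were above and 3 within. The 4 with a count of 0 were Mrgprb4 and the pseudogenes Gm7255, Mrgprc1-ps and Gm18349. Between and beside them, Mrgprb5 had 66 counts there, Mrgpra3 had 183, the pseudogene Gm5734 had 46, and Mrgprx3-ps had 469.

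**Figure D5:**
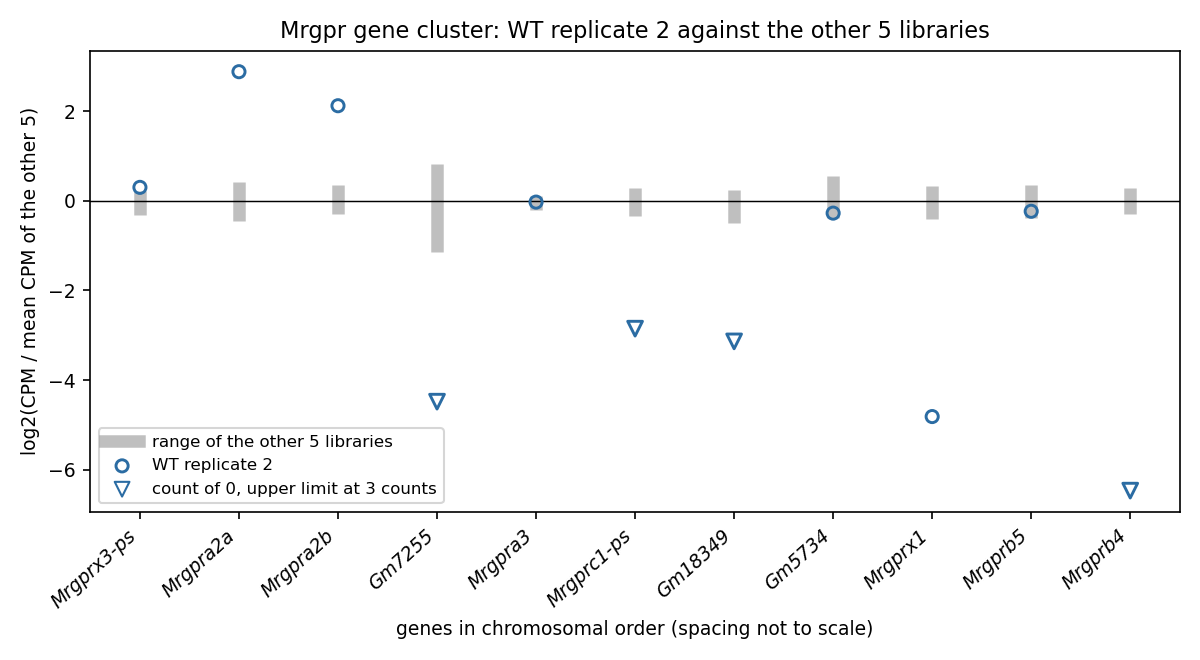
Log2 ratio of the CPM of WT replicate 2 to the mean CPM of the 5 other libraries for the 11 cluster genes with a mean count of at least 20, in chromosomal order and not to scale; grey bars are the range of the 5 libraries, and triangles are upper limits from 3 counts where the count was 0. Mrgpra2a and Mrgpra2b lie above 0, Mrgprx1 and Mrgprb4 far below, and Mrgpra3 and Mrgprb5 between them lie on the grey bars.

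The table holds 25 further genes of the family, Mas1 among them, for which it is named, and 13 of the 25 are pseudogenes. Among them 10 had a mean level of at least 0.1 CPM and 6 had no count in any library. The pseudogene Mrgprx3-ps was the most abundant of them, at 28.4 CPM in the 5 libraries. The rest of the 10 were Mrgprc1-ps, Mas1, Mrgprb12-ps, Mrgpra9, Mrgpra1, Mrgprh, Mrgprc7-ps, Mrgprb1 and Mrgprc2-ps, none of which exceeded a mean of 1.35 CPM over 6 libraries (Mrgprc1-ps, at 1.62 CPM in the 5). Mrgprb2, the receptor of mast cells, had 3 counts over all 6 libraries. In the 5 libraries 5 of the 25 could be tested and 0 were called.

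Genes known from the same neurons were counted next, from lists chosen with earlier results of these data in view. Of 15 Mrgprd-class markers, 0 were called in 6 libraries. Without WT replicate 2 none was higher and 3 were lower in Ash1l+/-, beside 9.39% of all genes higher and 10.4% lower (19.8% together). These were Tmem45b (log2 fold change -0.30, SE 0.08), the lysophosphatidic acid receptor gene Lpar3 (-0.23, SE 0.07) and Gfra2, the neurturin receptor gene (-0.21, SE 0.07), with edgeR adjusted p = 0.0106, 0.0335 and 0.0434. They were thus on the other side of 0 from Mrgprd, and the list's median was 0.03. With trends removed Tmem45b remained lower (-0.42, edgeR adjusted p = 0.000763), Lpar3 and Gfra2 were not called, and P2rx3, the ATP-gated channel of these neurons, was called higher (0.29, SE 0.08, edgeR adjusted p = 0.0309).

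The 10 markers of the Mrgpra3 class had a median log2 fold change of 0.07 in the 5 libraries, and Calca, the gene of the neuropeptide CGRP, was not called (0.08, SE 0.07, edgeR adjusted p = 0.488, and -0.21 over 6 libraries). Of 11 markers of the Nppb and Sst itch neurons, a further class of itch neuron, 3 were called, all higher, beside 9.39% of all genes higher. Nts, the neurotensin gene, was at 7.84, 22.5 and 9.22 CPM in WT and 21.4, 40.2 and 29.3 CPM in Ash1l+/-. Its log2 fold change was 1.83 (SE 0.19, edgeR adjusted p = 1.22e-05) in 5 libraries and 1.21 (edgeR adjusted p = 0.385) in 6. The cytokine receptor genes Osmr and Lifr were at 0.34 (SE 0.10) and 0.25 (SE 0.08), and neither was called with trends removed. Nppb and Sst, which define the class, were not called (0.06 and 0.03), and over 6 libraries Sst was at -0.94.

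In the signalling path of the receptors, 6 of 30 genes were called higher and 1 lower in the 5 libraries, and 0 of the 29 that could be tested in 6. The 6 higher and 1 lower genes stood beside 9.39% of all genes higher and 10.4% lower in the 5 libraries. Together they were close to the 19.8% of all genes called there. By the size of their change these were led by Itpr1, the calcium release channel of the endoplasmic reticulum (0.34, SE 0.12), the potassium channel gene Kcnq3 (0.33, SE 0.08), and the phospholipase C genes Plcb4 (0.32, SE 0.08) and Plcb1 (0.30, SE 0.10). The lower gene, named after its value was seen, was the receptor kinase gene Grk2 (-0.21, SE 0.07). With trends removed 1 of the 30 was called, Trpv1, the capsaicin receptor channel, named after its value was seen (0.27, SE 0.07, edgeR adjusted p = 0.0223). Gnaq, the G protein alpha subunit to which these receptors are known to couple, was at 0.17 (edgeR adjusted p = 0.127), and the channel gene Trpa1 was at 0.27 (edgeR adjusted p = 0.171).

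Of the 7 precursor genes of peptides known or proposed to act on these receptors, 5 could be tested and Tac1, the substance P gene, was called higher in the 5 libraries (0.33, SE 0.08, edgeR adjusted p = 0.00856) but not with trends removed. Over 6 libraries Tac1 was on the other side of 0 (-0.48, edgeR adjusted p = 0.571), with WT replicate 2 at 565 CPM against 168 to 239 CPM elsewhere. Penk, the proenkephalin gene, was at 0.945 to 2.22 CPM in the 5 libraries and was not called (-0.71, SE 0.35, edgeR adjusted p = 0.161).

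Among 18 genes of Runx1 and developmental control, 2 were higher and 6 lower in the 5 libraries, beside 9.39% and 10.4% of all genes, and 0 were called in 6. Runx1 itself was at 77.7, 94.2 and 93.4 CPM in WT and at 82.6, 84.9 and 83.8 CPM in Ash1l+/-, with overlapping groups, and its log2 fold change in 5 libraries was -0.03 (SE 0.08). With trends removed its value was -0.24 (SE 0.07) and passed (edgeR adjusted p = 0.0417). Among the called genes were the homeobox gene Tlx3 (-0.69, SE 0.08), Prdm12 (-0.37, SE 0.07) and the Kruppel-like factor gene Klf7 (0.34, SE 0.08). Over 6 libraries they stood at -1.31, 0.05 and 0.77, so Prdm12 changed direction. None of these 3 was called with trends removed, with Tlx3 at -0.23 (edgeR adjusted p = 0.0526). Pou4f1, named after its value was seen, was called lower in the 5 libraries (-0.22, SE 0.07, edgeR adjusted p = 0.0364). It was also called lower with trends removed (-0.21, SE 0.06, edgeR adjusted p = 0.0358). In that fit 2 of the 18 were lower, Runx1 and Pou4f1, and 0 higher, beside 4.41% and 2.63% of all genes.

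Markers of other cells were read in the same way. In the 5 libraries 3 of 8 fibroblast markers were lower and none higher (Col1a1, Col3a1 and Col1a2, at -0.63, -0.42 and -0.37), and 2 of 12 pan-neuronal markers were higher (Map2 and Elavl4) and 1 lower (Uchl1). Of 10 peptidergic nociceptor markers 6 were higher and 1 lower, and of 11 mechanoreceptor and proprioceptor markers 6 were higher and 0 lower. Of glial markers, 3 of 7 for satellite glia were higher and 0 lower, and of 7 for Schwann cells 2 were higher and 1 lower. Lower markers alone were called for red cells (3 of 6), C low-threshold mechanoreceptors (2 of 6) and mast cells (1 of 7), and higher markers alone for mural cells (1 of 10) and endothelium (1 of 7). None was called among 8 macrophage, 3 skeletal muscle and 3 keratinocyte markers. Over all genes 9.39% were called higher and 10.4% lower in these 5 libraries, and in 6 libraries no marker of any of these lists was called. With trends removed, 3 pan-neuronal, 4 peptidergic, 2 mechanoreceptor and proprioceptor, 1 satellite glia and 1 endothelial marker were called higher. Called lower in that fit were 3 fibroblast markers and 1 each for mechanoreceptors and proprioceptors, Schwann cells, mast cells and red cells. No mural or C low-threshold mechanoreceptor marker was called in it, beside 2.63% of all genes higher and 4.41% lower. The summed fibroblast level was 869 and 875 CPM in WT replicates 1 and 3 and 695 to 775 CPM in Ash1l+/-. It was 649 CPM in WT replicate 2, in which red cell markers summed to 627 CPM against 31.5 to 102 CPM elsewhere. Skeletal muscle markers summed to 1342 CPM there against 125 to 135 CPM, but 1310 of the 1342 was Pvalb, which proprioceptive neurons also express, and the muscle genes Acta1 and Mylpf were at 12.5 and 5.82 CPM. No fibroblast or red cell marker was at 0 in any library. The part of these cells in the receptor values was not tested.

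The protein-coding genes closest to each of the 3 most abundant receptors were ranked by the root mean square difference of centred log2 CPM, as a description over libraries that share their depth and make-up. Over 6 libraries, the 5 nearest to Mrgprd out of 13130 were Ift81, Amy1, Pdcd10, Gpatch11 and Nmt2, at 0.03 to 0.04 beside a median of 0.38 over all candidates. Mrgpra3 was nearest to Gpr176, Nudt11, Zfp64, Insig1 and Cnnm3, at 0.02 to 0.05 beside the same median. Mrgprb4, with its 0 in WT replicate 2, had no such close match: Ptprn2, Pcdhac1, Zfp146, Rybp and Pcdhac2 followed it at 0.18 to 0.25, beside a median of 2.79. Without WT replicate 2 those nearest to Mrgprd included Akap12, Zfp639, Sfpq and Usp7, and the 5 nearest were, to Mrgprb4, Aldh1a1, Tmem144, Ppp1r3b, Zfp174 and Apoh, and, to Mrgpra3, Sfxn4, Commd4, Lcmt1, Gpr176 and Gde1. Only Gpr176 was named both with and without that library, for Mrgpra3. Among the receptors themselves, the closest pair over 6 libraries was Mrgpra3 with Mrgprd, at 0.19, and without WT replicate 2 it was Mrgpra3 with Mrgprb4, at 0.12, with Mrgpra3 and Mrgprd at 0.21.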

How the data were processed

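The authors deposited raw read counts per gene and FPKM values for the same genes. The submitters' processing notes name HISAT2 2.0.5, featureCounts 1.5.0-p3 and the build GRCm38 (mm10), and no source used here gives the settings. Per the labels' protocols, RNA was taken with Trizol from frozen ganglia and a NEBNext Ultra kit made the libraries. The deposited FPKM equal the counts over gene length and 1 effective size per library, 0.75 of the total for WT replicate 2 and 1.02 to 1.04 of it in the others, so they served as another scale. Samples were grouped by their titles. No 2 libraries agreed within sampling noise (lowest chi-square per degree of freedom 3.86).

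From the counts, genes kept by filterByExpr were tested with edgeR 4.0.16 (R 4.3.3; quasi-likelihood test, TMM factors, genotype as the only term, Benjamini-Hochberg adjustment over all genes tested, threshold 0.05). SEs are the log2 fold change over the square root of F. CPM are TMM-scaled, and log2 CPM has a prior count of 2. Trends were removed with loess offsets on GC content and length (span 0.3; GC values for 99.9% of genes tested). Alternatives used DESeq2 1.42.0, limma 3.58.1, other scalings and filters. The fit was tested on simulated data with known changes. The receptors and lists were chosen with earlier results of these data known, as was the fit without WT replicate 2. All 9 receptors were named, with other family genes of at least 0.1 mean CPM, the 5 closest genes to each of the 3 most abundant receptors, and from each list up to 4 called genes with the largest change, or up to 3 with the highest mean CPM where none was called; a few genes chosen so are not reported here. Intervals and floors (95%, 3 counts) cover counting error only.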

Additional observations from a re-analysis of the deposited data

How the results depend on the processing

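Of 298 recomputed receptor fold changes, 237 kept their direction and side of the threshold, 9 kept the direction and newly passed, and 52 reversed. Leaving out each library, or WT replicate 2 with a further library, gave 0 to 4198 genes called, 0 to 2 receptors and 0 to 63 listed genes. With each single library left out, 1 to 3 receptors had groups that did not overlap. Among all genes tested, the groups did not overlap for 38.5% in 6 libraries and for 49.2% without WT replicate 2. Over the single and double omissions the log2 fold change ranged from -0.38 to 0.92 for Mrgprb4, -0.15 to 0.29 for Mrgprb5, -1.94 to 0.51 for Mrgpra2a, -1.29 to 0.43 for Mrgpra2b and -0.069 to 0.56 for Mrgprf. Where WT was left with 1 library, it was assumed to vary like the Ash1l+/- group. The summed Mrgpra2 pair reversed to 0.27 without WT replicate 2. Mrgpra3, Mrgprx1 and Mrgpre kept their direction in every setting run.

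With library quality weights in limma-voom, which gave WT replicate 2 a weight of 0.0274, 4179 genes, 1 receptor (Mrgprd) and 59 listed genes were called, and Mrgprb4, Mrgpra2a and Mrgpra2b stood at -0.086, 0.41 and 0.31. DESeq2 called 35 genes in 6 libraries. The next settings all leave out WT replicate 2, and some were added after seeing the data. Removal of GC and length trends called 1154 genes, 2 receptors and 23 listed genes, with Mrgprb4 at -0.37, Mrgprb5 at -0.060, Mrgpra2a at 0.23 and Mrgpra2b at 0.21. Scaling to the Mrgprd-class list called 1121 genes and 15 listed genes, with Mrgprb4 at -0.26, Mrgpra2a at 0.25 and Mrgpra2b at 0.23. DESeq2 called 2933 genes, 1 receptor and 49 listed genes (-0.22, 0.29 and 0.27 in the same order of genes). RLE factors called 3266 genes, 1 receptor and 52 listed genes (-0.22, 0.29 and 0.27), upper-quartile factors 3288, 1 and 52 (-0.22, 0.30 and 0.28), and library totals 3223 genes, no receptor and 53 listed genes (-0.23, 0.28 and 0.26). In 6 libraries, scaling to the Mrgprd-class list put Mrgprb5 at -0.0019, and scaling to the pan-neuronal list put Mrgprd at -0.050 and Mrgprb5 at -0.063. The median of all genes moved to 0.131 with library totals, -0.109 on the Mrgprd-class scale and -0.185 on the pan-neuronal scale. The causes were not tested.

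Libraries share only their replicate number: deviations of same-numbered libraries correlated at 0.000517, -0.0317 and 0.0378. The replicate block called 0 genes in 6 libraries. Without WT replicate 2 the block called 3982 genes, 2 receptors (Mrgprd and Mrgprb4) and 63 listed genes, with Mrgprb4 at -0.32, Mrgprb5 at -0.13, Mrgpra2a at 0.090 and Mrgpra2b at 0.22. Counting error is widest where counts are lowest: outside WT replicate 2 the lowest were 29 for Mrgpra2a and 39 for Mrgprf, and in it 0 for Mrgprb4, 7 for Mrgprx1 and 18 for Mrgprf.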

Other observations

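Gm7255, a pseudogene at chr7:47502456-47531784 whose interval overlaps that of Mrgpra2b without sharing annotated exon bases with it, was picked out after its values were seen. It had 46, 0 and 44 counts in WT replicates 1, 2 and 3 and 135, 166 and 97 counts in Ash1l+/- replicates 1, 2 and 3, so every Ash1l+/- library was above every WT library, as for 19.3% of all genes tested. In CPM it was at 2.27, 0 and 2.28 in WT and at 6.17, 8.89 and 5.39 in Ash1l+/-. Its log2 fold change was 2.13 (SE 0.96) in 6 libraries, which did not pass (edgeR adjusted p = 0.385). Without WT replicate 2 it was 1.58 (SE 0.24, edgeR adjusted p = 0.000274), and with GC and length trends removed as well it was 1.47 (SE 0.23, edgeR adjusted p = 0.000983). Mrgpra2b in the same 5 libraries was at 0.27.

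Zfp146, a zinc finger gene on chromosome 7, and Fam120c on the X chromosome were, with Mrgprb4, among the 4 genes at 0 in WT replicate 2 despite counts as high as those of Mrgprb4 elsewhere. Zfp146 had 475 and 466 counts in WT replicates 1 and 3 and 543, 505 and 434 in Ash1l+/-. Fam120c had 355 and 362 counts in the same WT libraries and 497, 470 and 366 in Ash1l+/-.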
